A study of Homo sapiens with 4 samples.

Results

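A group of 43 interferon genes was examined in HGC-27 cells, comprising 3 sensors of foreign nucleic acid, 5 transcription factors and 35 effectors or regulators that interferon induces in many cell types. The members come from a list of gene symbols that was drawn up with earlier results of these data known, and all 43 were found among the 62443 genes of the expression table. HGC-27 is a human gastric cancer cell line. RNA of these cells was sequenced in 4 libraries: 2 from cells given 10 μg/ml GLUP and 2 from control cells. GLUP is a synthetic cyclic peptide with a pair of TEAD4-binding elements, made to cluster TEAD4, the DNA-binding partner of YAP. The study's results text gives a treatment of 12 h and its methods text 48 h. The control cells received the buffer of the peptide according to the methods, and no treatment according to the sample labels. Nothing in the labels ties a library to its own culture or day, so p-values here measure only the spread between these libraries. In RNA from whole cultures, fewer cells expressing a gene and less RNA per cell cannot be told apart.

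Type I interferons bind the receptor pair IFNAR1 and IFNAR2, whose kinases JAK1 and TYK2 phosphorylate STAT proteins. STAT2 acts with IRF9 in the complex ISGF3, which binds the interferon-stimulated response element (ISRE) in promoters and induces antiviral genes. Many of these genes keep a low basal expression without added interferon, through tonic signalling or unphosphorylated STAT and IRF9 complexes. In tumour lines this basal level varies widely.

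The ISRE core was searched in the RefSeq promoter windows of GRCh38.p14, which run from 250 bases before a start to 50 after it. The letters sought were GAAA, any 2 bases and GAAA, on both strands. Windows were at hand for 33 of the 43 members, 46 windows in all. An ISRE core was present for 19 of the 33 genes (57.6%), against 1195 of 27305 genes overall (4.38%). By window, 23 of 46 held one, against 1255 of all 35116 windows (3.57%). Of the members with a window, the core was held by 10 of 16 whose log2 fold change with GLUP was below 0. It was held by 3 of 7 above 0 and by 6 of 10 that were too low to test. No window was at hand for DHX58, IRF3, OASL, MX2 and USP18 (above 0) or for OAS2, IFIT2 and TRIM22 (below 0). IRF7 and GBP2, too low to test, had none either. Windows thus covered 16 of 19 members below 0 and 7 of 12 above, and these shares were not compared by a test. The stretches below are from windows that hold a core. They belong to 5 members lower with GLUP, to IFIT1 of the same family as IFIT3 and IFIT5, to LGALS3BP, which was higher, and to 2 members at or near 0 FPKM in this line. They run 5′ to 3′ on the strand of the gene, and capitals mark the ISRE core, which reads TTTC where it lies on the opposite strand.
IFIT3, chr10:89327832-89327896, plus strand: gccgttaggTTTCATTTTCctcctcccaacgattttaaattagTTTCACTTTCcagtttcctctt
IFIT5, chr10:89414513-89414582, plus strand: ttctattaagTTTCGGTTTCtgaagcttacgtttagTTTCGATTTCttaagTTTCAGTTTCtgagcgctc
IFIT1, chr10:89392498-89392537, plus strand: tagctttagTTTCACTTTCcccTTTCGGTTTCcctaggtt
IFI44, chr1:78649759-78649793, plus strand: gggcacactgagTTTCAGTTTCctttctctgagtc
IFI44L, chr1:78620363-78620397, plus strand: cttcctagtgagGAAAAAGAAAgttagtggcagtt
DTX3L, chr3:122564318-122564357, plus strand: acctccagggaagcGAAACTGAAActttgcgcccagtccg
LGALS3BP, chr17:78979959-78979993, minus strand: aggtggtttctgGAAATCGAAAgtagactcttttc
HERC5, chr4:88456984-88457063, plus strand: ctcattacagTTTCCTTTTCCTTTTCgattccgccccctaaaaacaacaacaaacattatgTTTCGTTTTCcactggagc
EPSTI1, chr13:42992272-42992306, minus strand: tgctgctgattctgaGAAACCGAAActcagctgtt
IFIT5 and HERC5 carried 3 cores each in the stretch shown, and IFIT1 and IFIT3 carried 2. Letters of this core were therefore present also at HERC5 and EPSTI1, although HERC5 reached 0.0225 FPKM at most and EPSTI1 was listed at 0 in all 4 libraries. The windows of STAT2, IRF9, IFI35, UBE2L6 and HERC6 held no ISRE core. The gamma-activated sequence (GAS, TTC, any 3 bases and GAA, which reads the same on both strands) was present for 8 of the 33 members (24.2%) and 9.38% of all genes. By window the shares were 19.6% and 7.66%. The 8 included IRF9, IRF1, IFI35 and OAS1. GAS letters overlapped the ISRE core in EPSTI1 and in 1 window of MX1. A match gives letters only, and binding was not measured.

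The control libraries were used for the basal level. FPKM is corrected for transcript length and for the size of the library, so levels of different genes can be set side by side. Of the 43 members, 34 had a control mean of at least 1 FPKM and 9 were below it. The median control mean was 3.81 FPKM over all 43. At least 10 FPKM was reached by 11 members, and 23 lay between 1 and 10 FPKM. The highest were UBE2L6 (196 ± 165 FPKM, SD, n = 2), IFIT3 (137 ± 9.40), IFI35 (96.3 ± 105), IFI44L (83.3 ± 64.6) and IFIT1 (70.5 ± 11.1). The SDs of UBE2L6 and IFI44L were large beside their means and that of IFI35 exceeded its mean, so the places of these genes are not set by 2 libraries. Both control values of IFIT3 lay above both of IFIT1. PLSCR1 (42.96 ± 7.97), OAS1 (35.9 ± 24.5), STAT2 (33.5 ± 28.3), IFIT2 (21.0 ± 8.19) and IFI44 (20.8 ± 3.52) followed, and their ranges overlapped in part. Levels were uneven within gene families. IFIT3 stood far above IFIT5 (3.52 ± 0.00321), MX2 (2.60 ± 0.873) lay above MX1 (0.158 ± 0.0502), and HERC6 (7.38 ± 0.680) lay above HERC5. For each of these 3 pairs the control libraries did not overlap.

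**Figure D1:**
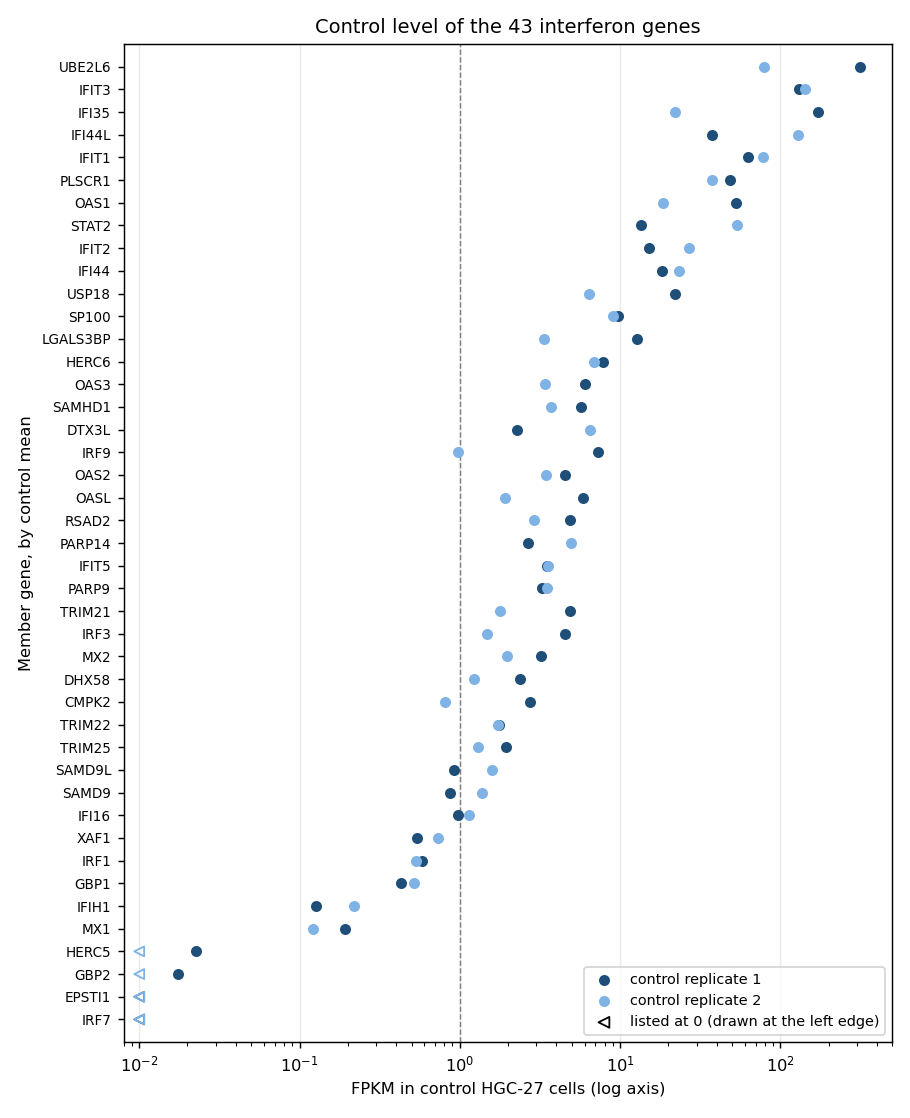
Control level of each of the 43 members, as FPKM on a log axis, with 1 point per control library and open triangles for values listed at 0. The members span UBE2L6 at 312 and 78.9 FPKM down to IRF7 and EPSTI1 at 0, and among genes above 0 in both libraries the 2 points lie furthest apart for IFI35, IRF9, STAT2, UBE2L6 and LGALS3BP.

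A control mean under 0.3 FPKM was found for 6 members: IFIH1, IRF7, MX1, GBP2, HERC5 and EPSTI1. IRF7, which amplifies type I interferon transcription, and EPSTI1 were listed at 0 in all 4 libraries, and 5 members were at 0 in at least 1 library. An exact 0 can be a failed estimate in a table without counts, although 30 widely used genes checked were above 0 in every library. Markers of leukocytes, which express many interferon genes, were low. Of 6 such markers, 5 were under 1 FPKM in every library, CD3E was at 0 throughout, PTPRC reached 0.0394 FPKM at most, and the summed level of the 6 was between 0.529 and 1.52 FPKM. Of 4 mesenchymal markers, VIM was at 293 to 387 FPKM and CDH2 at most 0.0508 FPKM. ZEB1 had 7.05 and 19.2 FPKM in the controls and 2.88 and 2.92 with GLUP. FN1 had 1.15 and 3.25 FPKM in the controls and 0.655 and 0.671 with GLUP. ZEB1 and FN1 were thus lower in both GLUP libraries, as were 49.7% of genes with a 4-library mean of at least 1 FPKM. Of 5 epithelial markers, EPCAM and CDH1 were under 1 FPKM in every library and lower in both GLUP libraries than in both controls. KRT8, KRT18 and KRT19 were higher in both, as were 17.5% of genes with a 4-library mean of at least 1 FPKM. Their log2 fold changes were 0.51, 0.57 and 0.29 in that order. With a correction for GC content, described further on, these became 0.21, 0.30 and -0.24. The correction took ZEB1 from -1.71 to -0.95 and FN1 from -0.86 to -0.23. The summed level of the 5 epithelial markers was 2.97 and 3.70 FPKM in the controls and 5.87 and 5.18 with GLUP. Of 3 fibroblast markers, DCN was lower in both GLUP libraries than in both controls, COL1A1 was higher in both and COL1A2 overlapped. The part of these markers in the members' differences was not tested.

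A test of the change with GLUP required a 4-library mean of 1 FPKM or more, which was met by 31 of the 43 members (72.1%) and 7588 of the 62443 genes (12.2%). Log2 fold changes are on the log2(FPKM + 1) scale and understate the change of low genes. With limma and Benjamini-Hochberg adjustment over the 7588 genes, 0 members passed both an adjusted p of 0.05 and a fold change of 2, where 0.0264% of all genes tested did. The smallest adjusted p of a member was 0.10. At an unadjusted p under 0.05, 10 of 31 members passed (32.3%), near the 31.7% of all genes. With a fold change over 2 required as well, 7 members were lower with GLUP (22.6%, background 14.5%) and 2 were higher (6.45%, background 4.67%). The median log2 fold change was -0.26 for the members and -0.36 for all genes tested, and 12 of 31 members were above 0 (38.7%) against 33.3% of all genes. The 7 lower members were IFIT2, IFIT3, IFIT5, HERC6, DTX3L, IFI44 and IFI44L, and the 2 higher ones were IRF9 and LGALS3BP. Both shares are to be read against the background, in which lower genes also outnumbered higher ones.

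Both GLUP libraries lay above both controls for 8 members (25.8%, background 17.5%) and below both for 14 (45.2%, background 49.7%). The remaining 9 overlapped. The 8 above were DHX58, IRF3, IRF9, OAS3, MX2, UBE2L6, IFI35 and LGALS3BP. The 14 below were STAT2, all 4 IFIT genes, HERC6, TRIM22, PARP9, PARP14, DTX3L, IFI44, IFI44L, SP100 and PLSCR1.

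The control libraries differed from each other more than the GLUP libraries did. Over all genes tested, the log2 values of the controls correlated at a Pearson r of 0.933 and those of the GLUP libraries at 0.986. On the log2 scale, 13 of the 31 members differed over 2-fold between the controls (10 lower and 3 higher in control replicate 2), whereas none differed over 2-fold between the GLUP libraries. Without control replicate 2, 7 members passed the adjusted p and the fold (22.6%, background 13.4%): IFIT2, IFIT3, IFIT5, HERC6, IFI44 and IFI44L lower, and LGALS3BP higher. Without control replicate 1, 15 passed (48.4%, background 35.7%). In all, 6 members, including OAS1, USP18 and TRIM21, had a fold change of opposite sign in these 2 fits. Without GLUP replicate 1 the lower count at an unadjusted p was 2 (6.45%, background 5.76%), and without GLUP replicate 2 it was 0 (background 5.82%). In each of these fits a lone library stands for its group and is assumed to vary like the other group.

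**Figure D2:**
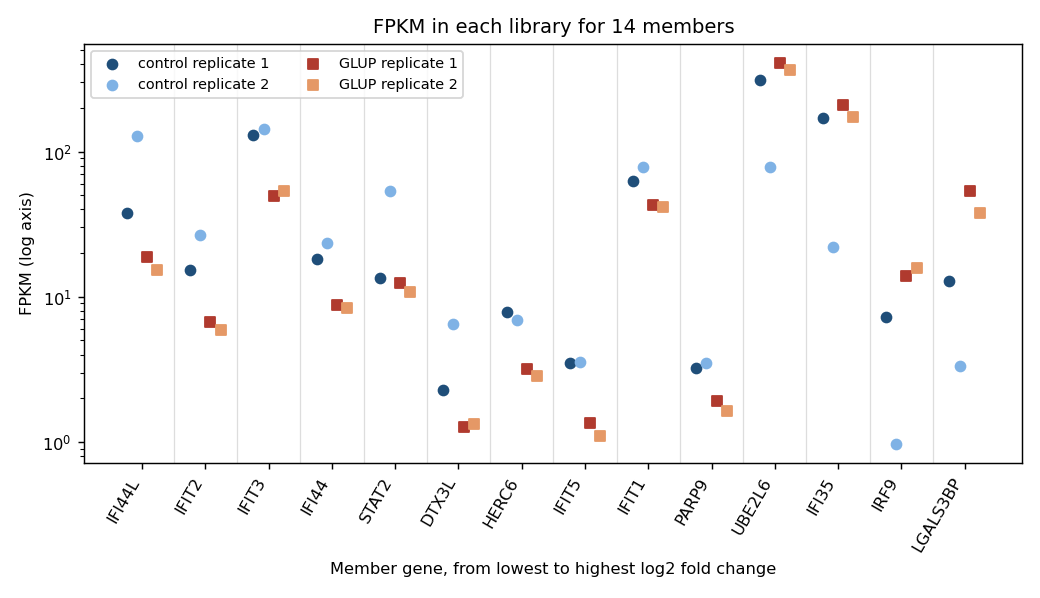
FPKM of 14 members in each library on a log axis, in order of log2 fold change, with circles for control and squares for GLUP. The squares of each gene lie close together, and the circles of IFI44L, STAT2, DTX3L, UBE2L6, IFI35, IRF9 and LGALS3BP lie far apart.

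Among the sensors, IFIH1 (MDA5), a receptor for long double-stranded RNA, was too low to test, at 0.127 and 0.218 FPKM in the controls and 0.102 and 0 with GLUP. IFI16, which binds DNA, had 0.972 and 1.14 FPKM in the controls and 0.880 and 0.441 with GLUP and was not tested either. DHX58 (LGP2), which modulates the RNA sensors, was at 2.38 and 1.22 FPKM in the controls and 2.48 and 3.10 with GLUP, with a log2 fold change of 0.46 that did not pass. It was 0.16 without control replicate 2 and 0.04 with a correction for GC content, which is described further on.

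The transcription factors lay on both sides of 0. IRF9, the DNA-binding subunit of ISGF3, had 7.30 and 0.972 FPKM in the controls and 13.9 and 15.7 with GLUP. Both GLUP libraries were higher than both controls, and control replicate 2 was far below control replicate 1. Its log2 fold change was 1.97 (SE 0.67, limma adjusted p = 0.125), 0.93 without control replicate 2 and 3.003 without control replicate 1. Exons of IRF9 overlap another gene of the same strand (ENSG00000259529), which was at 1.26 and 0.470 FPKM in the controls and 0.186 and 0.0043 with GLUP, so reads could be split between them. STAT2, its partner in ISGF3, had 13.5 and 53.6 FPKM in the controls and 12.5 and 10.8 with GLUP. Only control replicate 2 stood well apart, and the log2 fold change of -1.16 (SE 0.64, limma adjusted p = 0.251) was -0.20 without it. IRF3, which sensors activate to start interferon transcription, had 4.51 and 1.48 FPKM in the controls and 6.92 and 5.53 with GLUP, a log2 fold change of 0.96 that did not pass and was 0.38 without control replicate 2 and 0.52 with the GC correction. It overlaps BCL2L12 on the opposite strand, at 2.29 to 4.39 FPKM. IRF1, itself induced by interferon, was close between replicates, at 0.582 and 0.534 FPKM in the controls and 1.27 and 1.28 with GLUP. At a mean under 1 FPKM it was not tested, and the ratio of its means was 2.28. IRF1 is singled out here after its values were seen.

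The IFIT genes, whose proteins bind foreign or unmodified RNA ends and restrict translation, lay on one side. All 4 were lower in both GLUP libraries than in both controls, as were 49.7% of all genes tested, with a median log2 fold change of -1.21, and 3 of 4 passed the unadjusted p and fold. IFIT3 had 130 and 143 FPKM in the controls and 49.4 and 53.6 with GLUP. Its replicates were close in both groups, and its log2 fold change was -1.39 (SE 0.32, limma adjusted p = 0.10). IFIT2 had 15.2 and 26.8 FPKM in the controls and 6.73 and 5.93 with GLUP, a log2 fold change of -1.53 (SE 0.38, limma adjusted p = 0.10). IFIT5 had 3.52 and 3.53 FPKM in the controls and 1.35 and 1.10 with GLUP, a log2 fold change of -1.03 (SE 0.25, limma adjusted p = 0.10). IFIT1, the most abundant member of the family after IFIT3, had 62.6 and 78.3 FPKM in the controls and 43.01 and 41.6 with GLUP, and a log2 fold change of -0.71 (SE 0.33, limma adjusted p = 0.190) missed the unadjusted threshold. The family's median was -1.08 without control replicate 2 and -0.51 with the GC correction, under which IFIT1 was at -0.08 and IFIT5 at -0.23. The 4 genes lie within 138 kb of chromosome 10, at chr10:91043451-91181362 in GRCh37. Exons of IFIT2 and IFIT3 overlap LIPA on the opposite strand, and whether counting used strand is not stated. LIPA was at 5.14 and 4.87 FPKM in the controls and 4.69 and 4.29 with GLUP. Exons of IFIT2 also overlap a gene of the same strand (ENSG00000232110), so reads could be split between them. That gene was at 2.34 and 3.30 FPKM in the controls and 0.525 and 0.583 with GLUP.

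IFI44 and IFI44L, neighbouring interferon-induced genes within 44.2 kb of chromosome 1, were also lower with GLUP. IFI44 had 18.3 and 23.3 FPKM in the controls and 8.78 and 8.41 with GLUP, a log2 fold change of -1.18 (SE 0.31, limma adjusted p = 0.101). IFI44L had 37.6 and 129 FPKM in the controls and 18.8 and 15.2 with GLUP. Control replicate 2 was far above control replicate 1, and both exceeded the GLUP libraries. Its log2 fold change of -1.98 (SE 0.61, limma adjusted p = 0.111) was the lowest of the members and was -1.11 without control replicate 2.

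The OAS genes, which make the 2-5A messenger that activates RNase L, had log2 fold changes on both sides of 0. OAS1 had 53.2 and 18.6 FPKM in the controls and 45.2 and 43.1 with GLUP, so the controls spanned the GLUP libraries. OAS2 had 4.52 and 3.47 FPKM in the controls and 3.74 and 2.63 with GLUP, and again the groups overlapped. OAS3 had 6.05 and 3.38 FPKM in the controls and 7.52 and 6.22 with GLUP. OASL, a relative without that enzyme activity, had 5.90 and 1.91 FPKM in the controls and 7.11 and 5.89 with GLUP. None of the 4 had an unadjusted p under 0.05, and their log2 fold changes ran from -0.26 for OAS2 to 0.74 for OASL. The family's median of 0.48 became -0.07 without control replicate 2, with OAS1 at -0.26 and OASL at 0.12. With the GC correction it became 0.68 instead, with OAS1 at 1.16 and OASL at 0.80. The difference between the IFIT and OAS families was not tested.

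Of the antiviral GTPases, only MX2, which blocks nuclear import of some viruses, was tested. It had 3.21 and 1.98 FPKM in the controls and 4.25 and 3.94 with GLUP, a log2 fold change of 0.52 that did not pass. The fold change was 0.27 without control replicate 2 and 0.76 with the GC correction. MX1, a restriction factor for influenza virus, stayed at or under 0.193 FPKM in every library. GBP1 was between 0.289 and 0.518 FPKM and GBP2 was at most 0.0698.

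Among the genes grouped with the ISG15 conjugation cycle, the E2 enzyme UBE2L6 and HERC6 lay on opposite sides of 0. UBE2L6 had 312 and 78.9 FPKM in the controls and 407 and 362 with GLUP. Control replicate 2 was the low one, and the log2 fold change of 1.28 (SE 0.66, limma adjusted p = 0.223) was 0.30 without it. HERC6, related to the human ISG15 ligase HERC5, had 7.86 and 6.90 FPKM in the controls and 3.17 and 2.84 with GLUP. Its replicates were close, with a log2 fold change of -1.07 (SE 0.28, limma adjusted p = 0.101). USP18, which removes ISG15 and dampens receptor signalling, had 21.9 and 6.41 FPKM in the controls and 18.0 and 19.2 with GLUP, with the GLUP values inside the control range.

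DTX3L, an E3 ligase, and its partner PARP9 share a divergent promoter region on chromosome 3, with PARP14 nearby, all within 203 kb. DTX3L had 2.28 and 6.49 FPKM in the controls and 1.28 and 1.33 with GLUP, a log2 fold change of -1.11 (SE 0.43, limma adjusted p = 0.147) that was -0.51 without control replicate 2. PARP9 had 3.23 and 3.50 FPKM in the controls and 1.91 and 1.64 with GLUP, a log2 fold change of -0.66 (SE 0.25, limma adjusted p = 0.147). PARP14, a mono-ADP-ribosyltransferase, had 2.66 and 4.96 FPKM in the controls and 2.39 and 1.86 with GLUP. All 3 were lower in both GLUP libraries than in both controls, as were 49.7% of all genes. With the GC correction PARP9 was at -0.08 and PARP14 at 0.04. The exons of DTX3L and PARP9 overlap on opposite strands, so their values are not independent if reads were counted without strand.

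The TRIM ubiquitin ligases and the nucleotide-directed effectors had no unadjusted p under 0.05. TRIM21, an antibody receptor in the cytosol, had 4.90 and 1.77 FPKM in the controls and 3.30 and 4.08 with GLUP. TRIM25, which acts on RIG-I, had 1.96 and 1.31 FPKM in the controls and 1.61 and 1.48 with GLUP. TRIM22 had 1.74 in both controls and 1.08 and 1.36 with GLUP. SAMHD1, which depletes dNTPs, had 5.68 and 3.71 FPKM in the controls and 4.69 and 4.18 with GLUP. RSAD2 (viperin), which makes a chain-terminating nucleotide, had 4.87 and 2.91 FPKM in the controls and 3.10 and 2.17 with GLUP. CMPK2, its neighbour within 57.7 kb of chromosome 2, had 2.74 and 0.813 FPKM in the controls and 1.24 and 1.10 with GLUP. For TRIM21, TRIM25 and the 3 nucleotide-directed genes the groups overlapped, and only TRIM22 of these 6 had both GLUP libraries below both controls. CMPK2 and RSAD2 overlap on opposite strands.

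LGALS3BP, a secreted glycoprotein that binds galectins, had the highest fold change of the members. It was at 12.8 and 3.34 FPKM in the controls and 53.3 and 37.7 with GLUP. The lower GLUP value was above the higher control, and the ratio of means was 5.65. The log2 fold change was 2.57 (SE 0.59, limma adjusted p = 0.10), 1.74 without control replicate 2 and 3.40 without control replicate 1. IFI35, a leucine zipper protein, had 171 and 21.96 FPKM in the controls and 208 and 173 with GLUP. Its log2 fold change of 1.60 (SE 0.91, limma adjusted p = 0.259) was 0.15 without control replicate 2, so the difference rested on that library. PLSCR1, a phospholipid scramblase, had 48.6 and 37.3 FPKM in the controls and 27.2 and 22.3 with GLUP, a log2 fold change of -0.77 that did not pass and became 0.04 with the GC correction. SP100, a nuclear body protein, had 9.71 and 9.05 FPKM in the controls and 8.57 in both GLUP libraries.

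**Figure D3:**
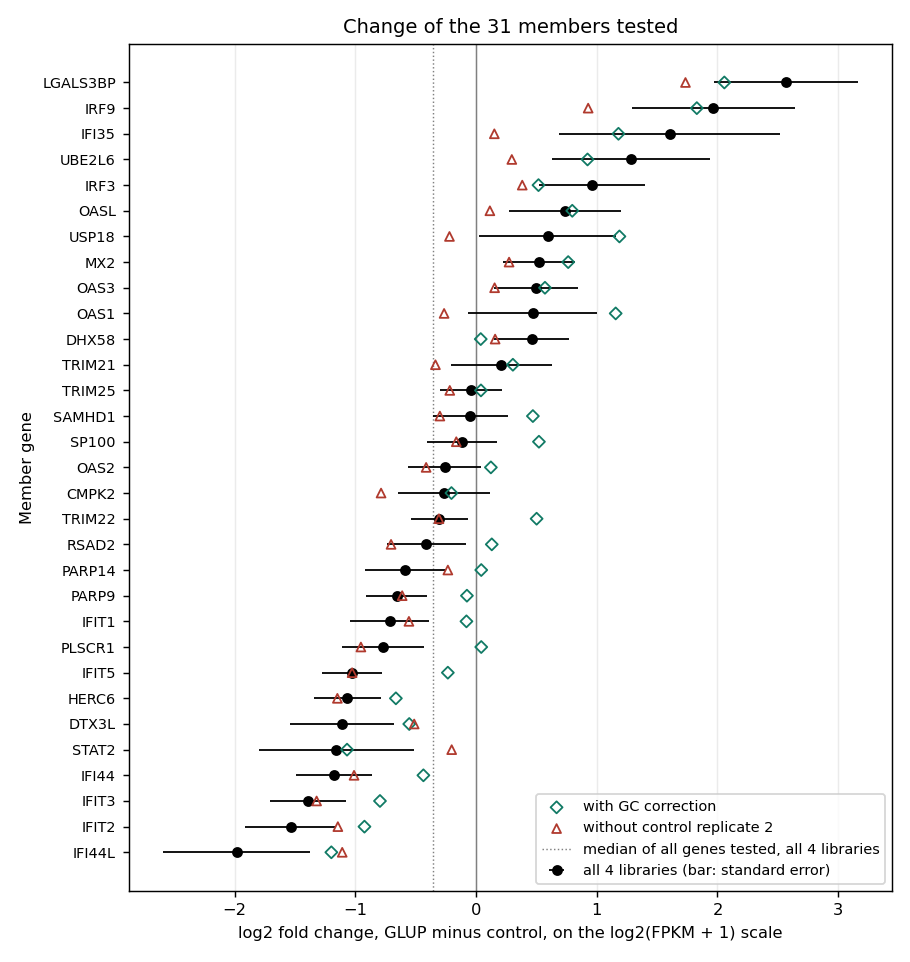
Log2 fold change of the 31 members tested, GLUP minus control, with standard errors (filled circles), with the GC correction (diamonds) and without control replicate 2 (triangles). LGALS3BP at 2.57 and IFI44L at -1.98 are the ends, the dotted line marks the median of all genes at -0.36, and the diamonds of IFIT5, PARP9, IFIT1 and PLSCR1 lie near 0.

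The members too low to test were 12. SAMD9 (0.277 to 1.37 FPKM) and its neighbour SAMD9L (0.164 to 1.59), both restriction factors for poxviruses, had lower values in both GLUP libraries than in both controls, as had IFIH1, IFI16 and GBP1. IRF1 alone was higher in both, and 6 of the 12 overlapped. Of all 28873 genes above 0 in any library, genes tested included, 7650 were lower in both GLUP libraries and 3813 were higher in both. XAF1, a pro-apoptotic protein, was between 0.206 and 0.733 FPKM in overlapping groups.

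Base composition moved with these differences. The log2 fold changes of the 31 members ranked with the GC content of the longest transcript at a Spearman rho of 0.682, and those of all genes tested at 0.577. The difference between the control libraries, replicate 2 minus replicate 1, ranked the other way, at -0.618 for the members and -0.424 for all genes. The points share the same 4 libraries, and these are descriptions across genes. The median GC content was 43.1% for the 19 members below 0 and 52.6% for the 12 above, and the 7 members lower at an unadjusted p and a fold over 2 had 37.5 to 46.3%. After a smooth GC trend was removed from each library, 0 members were lower at an unadjusted p and a fold over 2 (background 4.56%) and 2 were higher, IRF9 and LGALS3BP (6.45%, background 4.69%). The corrected log2 fold changes were 1.83 for IRF9 and 2.06 for LGALS3BP. They were -0.92 for IFIT2, -0.80 for IFIT3, -0.66 for HERC6, -1.20 for IFI44L, -0.44 for IFI44, -0.23 for IFIT5 and -0.55 for DTX3L. The direction turned from below to above 0 for 8 members: PLSCR1, PARP14, TRIM22, TRIM25, SP100, OAS2, RSAD2 and SAMHD1. Some members above 0 moved further up, among them OAS1 (0.47 to 1.16), USP18 (0.59 to 1.19) and MX2 (0.52 to 0.76). The part of base composition in the members' differences was not tested.

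**Figure D4:**
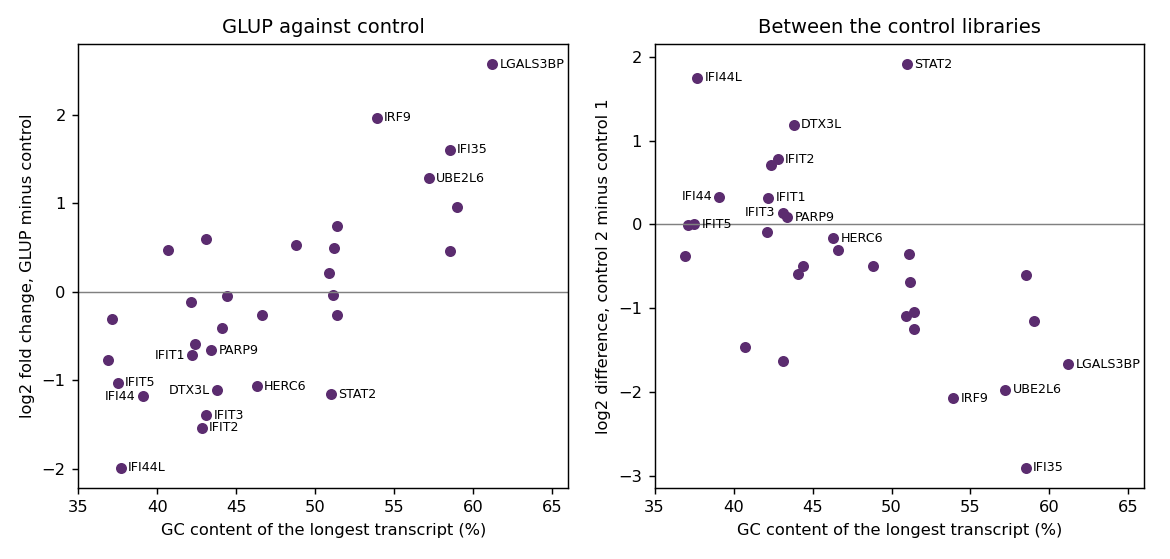
Log2 fold change of the 31 members with GLUP (left) and log2 difference between the control libraries (right), each against the GC content of the longest transcript in percent. Members rich in GC, such as LGALS3BP and IFI35, are high on the left and low on the right, and IFI44L is the reverse, whereas STAT2 at 51.0% GC lies apart from both trends.

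Other genes of the pathway, 61 in a list of interferons, receptors, kinases, sensors, regulators and effectors, were all found, and 31 were tested. With limma, 0 had an adjusted p under 0.05. An unadjusted p under 0.05 was found for 6 of these 31, a lower share than the 31.7% of all genes tested. At a fold change over 2 as well, 2 were higher (background 4.67%) and 0 were lower (background 14.5%). Both GLUP libraries were above both controls for 7 (22.6%, background 17.5%) and below both for 14 (45.2%, background 49.7%). The median log2 fold change was -0.18, against -0.36 for all genes tested. Among 9 interferon genes, 4 were at 0 in all libraries, whereas IFNB1, named here after its values were seen, had 6.12 and 6.37 FPKM in the controls and 3.21 and 2.99 with GLUP. The receptor chain IFNAR1 had 3.16 and 3.49 FPKM in the controls and 1.76 and 1.74 with GLUP, and IFNAR2, too low to test, had 1.49 and 0.872 FPKM in the controls and 0.218 and 0.0998 with GLUP. JAK1, the kinase bound to IFNAR2, was at 0.810 and 0.699 FPKM in the controls and 0.372 and 0.339 with GLUP and was not tested. IFNB1 and IFNAR1 were each lower in both GLUP libraries than in both controls, as were 49.7% of all genes tested. IFNAR2 and JAK1, not tested, were also lower in both, as were 7650 of all 28873 genes above 0 in any library. With the GC correction the log2 fold change of IFNB1 went from -0.82 to -0.17 and that of IFNAR1 from -0.65 to -0.05.

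DDX58 (RIG-I), the sensor of short RNA ends, had 3.80 and 4.97 FPKM in the controls and 5.10 and 3.30 with GLUP, and MAVS, its adaptor, was between 0.277 and 0.660 FPKM. ISG15, the ubiquitin-like protein that UBE2L6 conjugates, had 9221 and 9031 FPKM in the controls and 12920 and 12620 with GLUP, a log2 fold change of 0.48 that did not pass and turned to -0.08 with the GC correction. The 2 genes that were higher with a fold over 2 were BST2 (tetherin) and IFI27. BST2 had 675 and 43.3 FPKM in the controls and 1656 and 1373 with GLUP, a log2 fold change of 3.12 (SE 1.19, limma adjusted p = 0.144) that was 1.16 without control replicate 2. IFI27 had 13870 and 8233 FPKM in the controls and 22450 and 25120 with GLUP, a log2 fold change of 1.15 (SE 0.29, limma adjusted p = 0.10) that was 0.78 without control replicate 2.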

How the data were processed

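RNA-seq libraries of HGC-27 cells, 2 control and 2 GLUP-treated, were used. The authors deposited FPKM values, 1 row per gene. The submitters' processing notes name HISAT2, Cufflinks, RSEM and GRCh38.p10, with no versions or roles, whereas the row identifiers have the form of annotation lifted to GRCh37. Rows of 1 gene (49 second pseudoautosomal copies) were summed, giving 62443 genes, and 99.55% of 62492 rows matched a GENCODE name on GRCh37, which also gave positions, overlaps and GC content. Promoter sequences came from RefSeq (GRCh38.p14).

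FPKM were used as deposited, on the log2(FPKM + 1) scale. Tests used limma 3.58.1 under R 4.3.3 for the 7588 genes whose 4-library mean was 1 FPKM or more (moderated variances with a mean-variance trend, no covariates) and Benjamini-Hochberg adjustment over all 7588. The script was tested on simulated data. For the GC correction, the deviation of each library from the gene mean was smoothed along GC content (lowess, span 0.3) and subtracted, for 7570 genes. Sequencing depth is unknown: low values are not multiples of a single-read step, and FPKM sums were 909735 to 949919, so no counting error can be given.

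The members, the gene lists and the tests were chosen with earlier results of these data known. Standard errors and adjusted p-values are given for members with a fold change over 2 or an unadjusted p under 0.05 and for the 5 highest control means. Of the other pathway genes, 1 is not reported here. Alternatives were a pseudocount of 0.1, all genes above 0, a minimum mean of 5 FPKM, quantile normalization, centring of the medians, no trend, the replicate number as a block, the GC correction, both together, and leaving out each library. The GC correction without control replicate 2 was added after seeing the data.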

Additional observations from a re-analysis of the deposited data

How the results depend on the processing

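The count of members past both an adjusted p of 0.05 and a fold change of 2 was 0 in every fit with all 4 libraries and between 0 and 15 when 1 library was left out (15 without control replicate 1, 7 without control replicate 2). At an unadjusted p, the 2 higher members became 1 with all genes above 0 (254 of all 28873 genes). They became 5 after centring on medians (796 of all 7588) and 4 after quantile normalization (673 of 7588). The 7 lower members became 3 after centring (428 of 7588), 3 after quantile normalization (486 of 7588) and 0 with the GC correction (345 of 7570). Over all genes, centring moved the median log2 fold change from -0.36 to -0.01 and the split of all genes from 354 higher and 1103 lower to 796 and 428. The members' median of -0.26 became 0.083 after centring, 0.074 after quantile normalization and 0.12 with the GC correction, and relative to all genes it stayed between -0.14 and 0.31. Both GLUP libraries were above both controls for 14 members after centring, in place of 8 (all genes 2484, in place of 1330), and below both for 7 with the GC correction, in place of 14 (all genes 2114, in place of 3770). With the replicate number as a block, 4 members were higher and 7 lower (477 and 1211 of all 7588 genes), and with the block and the GC correction 5 were higher and 1 lower (428 and 406 of 7570), at a median of 0.12. The numbers share no stated day, and with 2 pairs (r of the replicate differences 0.126) they were not taken to pair the libraries. The GC correction without control replicate 2, chosen after seeing the data, gave 1 higher and 0 lower. In that run the log2 fold change was -0.0012 for DTX3L, -0.0011 for IFIT1, -0.0062 for STAT2 and 0.018 for IFI35. It was -0.79 for IFIT3, 0.98 for IRF9 and 1.55 for LGALS3BP. Of the 14 members given with a standard error, all but IFIT1 had a fold change over 2 or an unadjusted p under 0.05 in the main fit. A stable sign was thus partly set by that choice, and other members did change sign with the GC correction. None of these 14 members changed sign in any alternative run. Of their values, 39 lost and 10 gained an unadjusted p under 0.05 and 144 stayed on the same side. The causes were not tested. Depth is unknown, so what counting error limits cannot be said.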
